A study of Mus musculus with 3 samples.

Results

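The peaks of BCL11A on mouse chromosomes 12 and 14 in mouse erythroleukemia (MEL) cells are described here. All peaks that the deposited list places on these 2 chromosomes were taken, whatever their score or width, and they number 238 of the 2370 peaks in the list (10.0%). Chromosome 12 held 145 of them and chromosome 14 held 93. A peak was called distal where its centre lay at or beyond 110 Mb of the mm9 assembly, which applied to 137 peaks on chromosome 12 and 86 on chromosome 14. The 2 chromosomes and the 110 Mb boundary were chosen by peak position and density in this same list, so the positions of these peaks are a description and carry no test. Score and width come from the same peak calls and are described in the same way.

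The study mapped where BCL11A sits on chromatin in MEL cells, a transformed mouse line that resembles an early red cell precursor. The cells behind the list carried FLAG-Biotin-tagged BCL11A and BirA, a bacterial ligase that attaches biotin to the tag, and the labels describe them as cell clones without giving their number. Chromatin was captured on streptavidin beads after fixation in 1% formaldehyde for 5 min. The labels name 3 samples, the tagged BCL11A cells, cells that expressed BirA alone, and input DNA, each once, and all 3 share the MEL background, medium with 10% serum and the same fixation. The list of the tagged cells is the 1 file analysed, BirA-only and input files were not used here, and without a replicate the values carry no error between samples. Spread is given as quartiles over peaks, which are not independent of each other. Read depth is unknown, and precision from read counts cannot be stated.

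BCL11A is a zinc-finger protein that binds DNA and recruits repressor complexes. It is best known in red cell precursors for silencing the globin genes of earlier developmental stages, and it is needed for the formation of B lymphocytes as well. Neither chromosome 12 nor chromosome 14 carries the alpha-like or beta-like globin clusters. In the gene order of the GRCm38.p6 assembly, chromosome 12 carries Dlk1, Meg3 and Dio3, genes of an imprinted cluster, then Akt1, a kinase of growth factor signalling, and then Igh, the immunoglobulin heavy chain locus that is rearranged in B cells. Chromosome 14 carries the microRNA genes Mir17, Mir18, Mir19a, Mir20a, Mir19b-1 and Mir92-1 with their host transcript Mir17hg, a cluster that promotes cell proliferation, followed by Gpc5 and Gpc6, which encode cell surface proteoglycans. This order comes from a different assembly than the peaks and is background: no peak was placed at or near any of these genes, and no peak sequence was read.

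On both chromosomes nearly all peaks lay far from the proximal end. The distal share was 94.5% on chromosome 12 (137 of 145, Wilson 95% interval 89.5 to 97.2%) and 92.5% on chromosome 14 (86 of 93, 85.3 to 96.3%). These intervals cover counting error only and treat clustered peaks as independent, so they are too narrow to be relied on. With edges within 10 kb merged, the shares were 91.0% and 78.1%, the latter below its interval. The boundary fell in a wide empty stretch on each chromosome. On chromosome 12 no peak was listed over the 24.96 Mb from 88198515 to 113161302. On chromosome 14 the empty stretch was longer, at 51.9 Mb from 62669144 to 114581981. The peaks nearest to the boundary on either side scored below the list median of 59.4 on both chromosomes. The last peaks below 110 Mb scored 50.75 on chromosome 12 and 50.38 on chromosome 14, and the first peaks above it scored 51.91 and 56.58. The next ones outward scored 59.95 and 51.41 below it, and 69.26 and 57.30 above it.

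The distal peaks formed 3 blocks, where a block is an unbroken series of 20 or more peaks with no step between centres above 250 kb. Chromosome 12 had a first block of 79 peaks over 1.63 Mb, from 113161303 to 114789472, and a second block of 57 peaks over 2.25 Mb, from 117375345 to 119629840. Chromosome 14 had a single block of 86 peaks over 0.860 Mb, from 114581982 to 115441706. The chromosome 14 block was thus the shortest and held the most peaks, at 100.03 per Mb against 48.5 and 25.3 in the 2 blocks of chromosome 12. The peaks themselves covered 11.05% of the chromosome 14 block, 4.30% of the first block of chromosome 12 and 1.91% of the second.

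**Figure D1:**
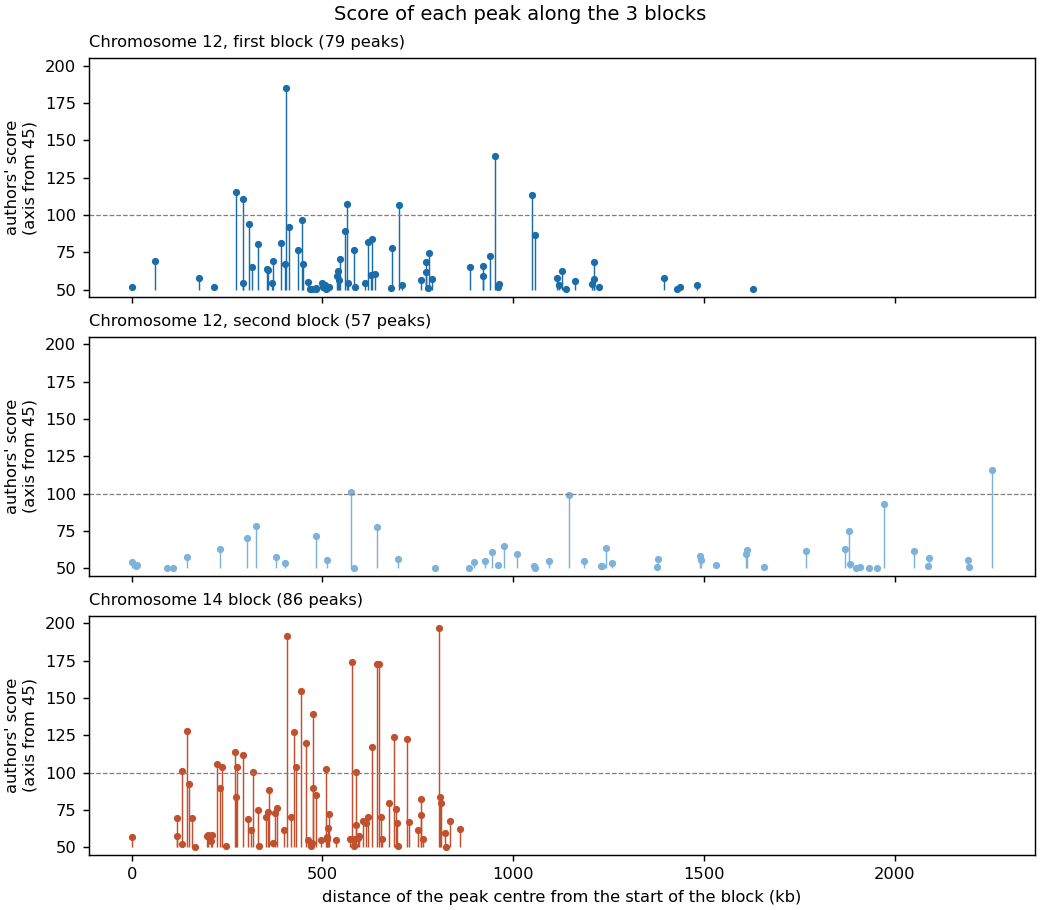
Authors' score of each peak (vertical axis, no stated scale, drawn from 45) against the distance of its centre from the start of its block in kb, for the 79, 57 and 86 peaks of the 3 blocks on 1 common distance scale, with a dashed line at a score of 100. The chromosome 14 block has 23 peaks above the line within 0.860 Mb, and the second block of chromosome 12 has 2 within 2.25 Mb.

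The 2 blocks of chromosome 12 were separated by 2.59 Mb that held 1 peak. This peak, at 115375692 to 115376389, was 698 bp wide with a score of 50.12. It lay 586 kb beyond the end of the first block and 1999 kb before the start of the second, and it is the only distal peak in no block.

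Within the blocks the peaks were spread in different ways. In bins of 100 kb counted from the block start, the chromosome 14 block held 10 to 14 peaks in 6 of its 9 bins and 1 peak in the first bin. Its first peak, at 114581982 to 114583019, stood 116 kb ahead of the next, and this was the longest distance between peaks in that block. The first block of chromosome 12 had a dense core, with 12 peaks between 400 and 500 kb from its start and 14 between 500 and 600 kb, while the median over its 17 bins was 4. Its far end was sparse. The 4 bins from 1300 to 1700 kb held 1, 3, 0 and 1 peaks, and the longest empty distance was 169 kb. The second block of chromosome 12 was even and thin, with 1 to 4 peaks in each of its 23 bins and no core.

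**Figure D2:**
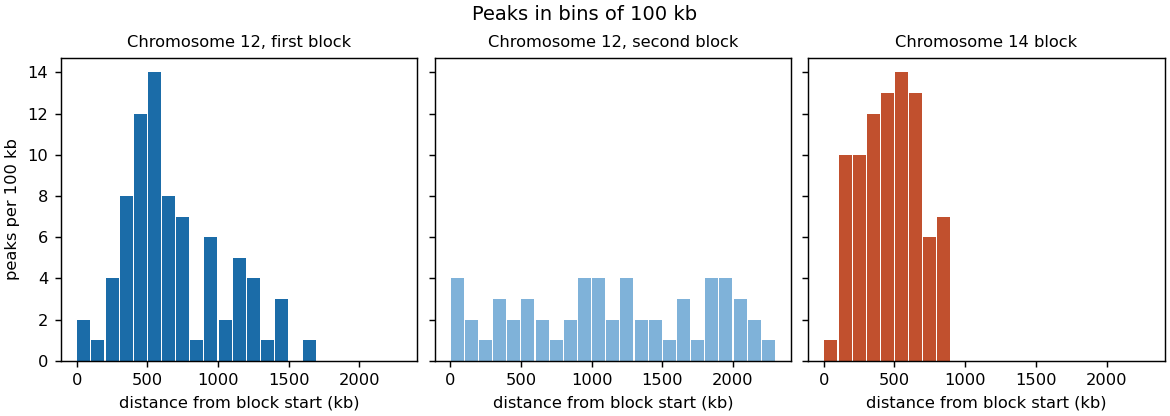
Number of peaks (vertical axis) in bins of 100 kb by distance from the block start in kb (horizontal axis, the same range in all 3 panels). The first block of chromosome 12 rises to 14 peaks in 1 bin, the second block stays at 1 to 4, and 6 of the 9 bins of the chromosome 14 block hold 10 or more.

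Spacing followed the same order. The median distance between neighbouring centres was 6.96 kb in the chromosome 14 block (quartiles 3.09 and 12.2 kb, 85 distances). It was 8.82 kb in the first block of chromosome 12 (3.74 and 21.7 kb, 78 distances) and 31.7 kb in the second (12.6 and 61.5 kb, 56 distances). The quartile ranges of the chromosome 14 block and the first block of chromosome 12 overlapped broadly. That of the second block of chromosome 12 began just above the upper quartile of the chromosome 14 block and overlapped with that of its neighbour. Over all distal peaks of chromosome 12 the median was 14.99 kb.

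**Figure D3:**
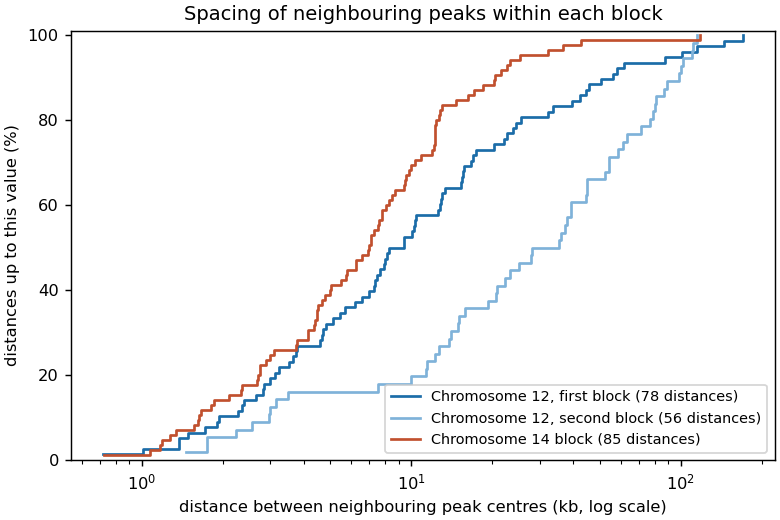
Share of neighbouring distances (vertical axis, %) at or below the distance on the horizontal axis (kb between peak centres, log scale), with 1 line per block. The medians are 6.96 kb for chromosome 14, 8.82 kb for the first and 31.7 kb for the second block of chromosome 12, whose line lies to the right over most of the range.

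Most neighbouring peaks of the chromosome 14 block had edges within 10 kb, and a few lay almost edge to edge. The median distance between edges was 6.13 kb. Of its 85 neighbouring pairs, 61 (71.8%) had edges within 10 kb and 11 within 1 kb, and the closest pair was 13 bp apart. In the first block of chromosome 12, 45 of 78 pairs (57.7%) had edges within 10 kb, 6 had edges within 1 kb, and the closest pair was 33 bp apart. In the second block these counts were 11 of 56 (19.6%) and 2, and the closest pair was 791 bp apart. The counts of separate sites therefore depend on how close peaks are treated. With edges within 10 kb joined, the 86 peaks of the chromosome 14 block became 25, and the 79 and 57 peaks of chromosome 12 became 34 and 46. After this step the thin second block of chromosome 12 had the most sites of the 3, and chromosome 12 as a whole had 81 distal sites against 25.

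The largest such cluster lay in the chromosome 14 block. It held 12 peaks over 57.0 kb, from 115154641 to 115211597, with scores of 50.92 to 174.00 and a median of 65.6. The tightest cluster of at least 5 peaks, also on chromosome 14, put 5 peaks into 8.63 kb from 115090152 to 115098784, where peaks covered 59.7% of the sequence. In all, 41 of the 86 peaks there lay in 6 clusters of at least 5. In the first block of chromosome 12, 21 of the 79 peaks lay in 4 such clusters, the largest with 6 peaks over 18.6 kb from 113659816 to 113678453. The second block of chromosome 12 had no cluster of more than 2 peaks, and 35 of its 57 peaks stood alone.

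Scores were higher on distal chromosome 14 than on distal chromosome 12. On chromosome 14 the distal peaks had a median score of 70.1 (quartiles 56.8 and 100.4, range 50.35 to 196.87, 86 peaks). On chromosome 12 they had 56.6 (51.8 and 68.1, range 50.01 to 185.08, 137 peaks). Within chromosome 12 the first block had a median of 58.8 (52.8 and 73.3) and the second had 55.1 (51.6 and 62.0). For all 2370 peaks the median was 59.4, so the chromosome 14 block lay above the list as a whole, and both blocks of chromosome 12 lay slightly below it. All of these ranges overlap, since the list has a floor at 50 and each block holds peaks close to it.

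The upper quartiles of the distal scores on chromosomes 14 and 12 lay further apart (100.4 and 68.1) than the lower ones (56.8 and 51.8). The shares of high and of low scores both differed. Scores over 100 were given to 23 of 86 peaks in the chromosome 14 block (26.7%), to 7 of 79 in the first block of chromosome 12 (8.86%) and to 2 of 57 in the second (3.51%), against 10.0% of the whole list. Scores over 150 were given to 6, 1 and 0 of them. At the lower end, 14 of 86 peaks (16.3%) scored under 55 on chromosome 14, against 30 of 79 (38.0%) and 26 of 57 (45.6%) in the blocks of chromosome 12 and 33.4% of the list. Of the 237 highest-scoring peaks of the list, 23 lay in the chromosome 14 block and 9 in the 2 blocks of chromosome 12.

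The highest peak of both chromosomes, the 11th of the list, lay on chromosome 14 at 115386392 to 115389141. It scored 196.87 and was 2750 bp wide. The next, at 114988835 to 114989809, scored 191.55 over a width of only 975 bp. A score of 174.00 was given to the peak at 115158826 to 115160835, which is 2010 bp wide. The peaks at 115224336 to 115226502 and at 115228400 to 115231405 scored 172.81 and 172.55, and they are neighbours. The latter, at 3006 bp, is the widest peak of the 2 chromosomes. The lowest score of this block was 50.35 at 114747692 to 114748392, its narrowest peak had 476 bp at 114779977 to 114780452 (score 57.28), and its last peak, at 115441069 to 115441706, scored 62.12.

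In the first block of chromosome 12 the highest peak, at 113564340 to 113566488, scored 185.08 over 2149 bp and was the 16th of the list. Its score stood apart from those of the other peaks in that block, while its position was in the dense core. The second, at 114112325 to 114114740, scored 139.21 and was the widest there with 2416 bp. It was followed by 115.63 at 113434391 to 113436154, 113.01 at 114211172 to 114212547 and 110.49 at 113451522 to 113452382. The lowest score was 50.01 at 114297970 to 114298864. The narrowest peak, at 113799412 to 113799869, had 458 bp and scored 60.52. The block opened at 113161303 to 113161967 with 51.91 and closed at 114788777 to 114789472 with 50.22, both close to the floor.

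The second block of chromosome 12 had few high peaks. Its highest was also its last and widest, at 119628676 to 119629840, with a score of 115.68 and a width of 1165 bp, the 135th of the list. The following 4 scored 101.40 at 117949279 to 117950260, 99.09 at 118520964 to 118522114, 93.03 at 119347561 to 119348724 and 78.08 at 117699889 to 117700687. They were spread over the block and not gathered in 1 part of it. Its lowest score was 50.11 at 118259585 to 118260232, its first peak, at 117375345 to 117375973, scored 53.99, and its narrowest, at 117777283 to 117777868, had 586 bp and scored 53.38.

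High peaks stood closer together on chromosome 14 than on chromosome 12. The centres of neighbouring peaks with scores over 100 lay a median of 18.4 kb apart in the chromosome 14 block (range 4.48 to 88.1 kb), and 6 pairs of them followed each other with no lower peak between. In the first block of chromosome 12 the median was 124 kb (range 16.7 to 252 kb) with 1 such pair. The chromosome 14 block also held more peaks per Mb (100.03 against 48.5) and a larger share of scores over 100 (26.7% against 8.86%). Both of these by themselves shorten such distances, and the larger share adds such pairs. Whether high peaks stood closer together than that was not tested. Peaks over 100 ran through the chromosome 14 block, in 8 of its 9 bins of 100 kb, from 131 to 807 kb after its start. In the first block of chromosome 12 they occupied 6 of 17 bins, from 273 to 1051 kb after its start, and the sparse far end had none.

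Along each block the level of the scores showed no single slope. Before the midpoint of the chromosome 14 block, at 115011844, 36 peaks had a median score of 71.6 and after it 50 peaks had 67.7, with 10 and 13 peaks over 100. In the first block of chromosome 12 the part before the midpoint, at 113975387, held 56 peaks with a median of 61.0, and the part after it held 23 peaks with 57.0. In the second block the 28 and 29 peaks on either side of 118502592 had medians of 55.1 and 55.4. All 3 differences are small beside the quartile range of their block.

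Peaks of like score did lie side by side in places. The longest run of consecutive peaks under the list median of 59.4 was in the dense core of the first block of chromosome 12, where 12 peaks from 113622389 to 113698715 scored 50.28 to 58.77. Directly before it, from 113530752 to 113610419, lay that block's longest run above the list median, with 8 peaks of 66.97 to 185.08. The core thus holds both the highest peak of chromosome 12 and a stretch of 76.3 kb close to the floor. In the chromosome 14 block the longest run above the list median had 9 peaks, from 114957986 to 115038555 (61.42 to 191.55), and the longest below it had 5. These runs were read off the data and have no test.

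Peak widths went with the scores. The median width was 997 bp in the chromosome 14 block (quartiles 795 and 1293 bp), 731 bp in the first block of chromosome 12 (672 and 949 bp) and 716 bp in the second (666 and 808 bp), against 764 bp over the list. Widths over 1000 bp were found for 43 of 86 peaks on chromosome 14 (50%), and for 18 of 79 (22.8%) and 4 of 57 (7.02%) on chromosome 12. The share was 28.3% over the whole list (671 of 2370). It was 37.1% in all blocks of other chromosomes and 52.2% in those of chromosome 8. Over the distal peaks Spearman's rho of score and width was 0.66 on chromosome 14 (86 peaks) and 0.55 on chromosome 12 (137 peaks). By block it was 0.59 in the first and 0.49 in the second of chromosome 12. These peaks share 1 library and 1 peak calling, so rho is a description with no p.

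By range of width, the order of the 2 chromosomes was not the same throughout. Among distal peaks of 700 to 1000 bp, the median score was 67.7 on chromosome 14 (quartiles 57.0 and 78.8, 30 peaks). On chromosome 12 it was 58.3 (54.8 and 67.6, 54 peaks), so the median was 9.40 higher on chromosome 14. Peaks over 1000 bp had a median of 89.6 on chromosome 14 (65.0 and 118.5, 43 peaks) and of 92.5 on chromosome 12 (78.4 and 107.0, 22 peaks). Peaks of 600 to 699 bp had 54.7 (51.9 and 62.1, 9 peaks) and 52.0 (50.8 and 54.7, 56 peaks), and the 4 and 5 peaks under 600 bp had 56.7 and 60.5. The quartile ranges of the 2 chromosomes overlapped in every range of width. Over all widths the median was 13.6 higher on chromosome 14, where 50% of distal peaks were wider than 1000 bp, against 16.1% on chromosome 12.

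**Figure D4:**
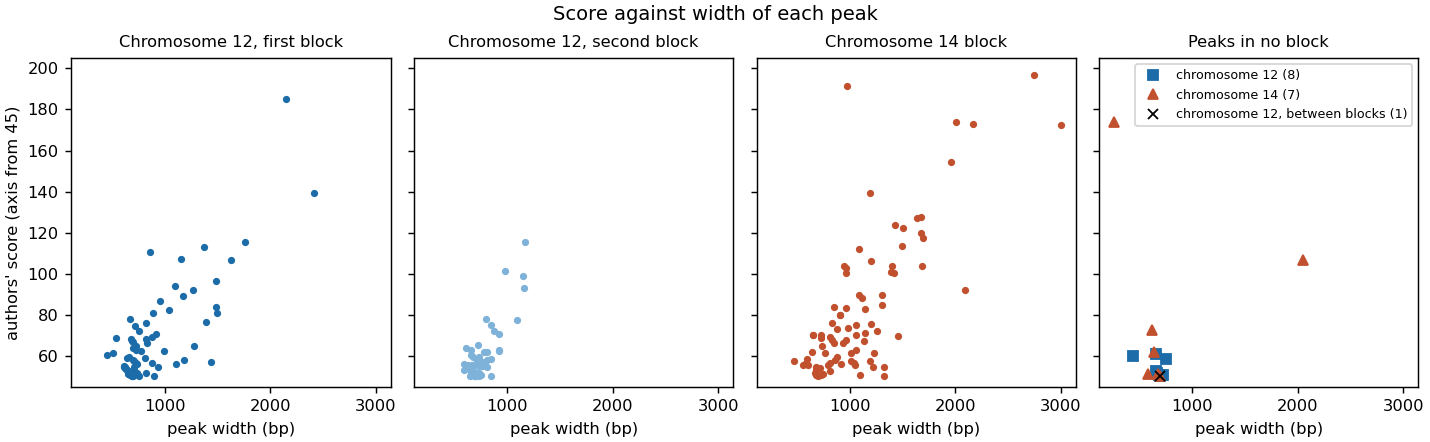
Authors' score (vertical axis, drawn from 45) against peak width in bp (horizontal axis) for each peak of the 3 blocks and, in the last panel, for the 16 peaks in no block. Wide peaks score higher in each block, 43 of 86 peaks of the chromosome 14 block are wider than 1000 bp, and the chromosome 14 peak of 254 bp and score 173.89 stands alone at the upper left of the last panel.

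Some peaks shared both score and width exactly, mostly near the floor. Of the 71 such peaks on the 2 chromosomes, 50 scored under 55, as did 471 of the 710 in the list. Of the 238 peaks, 71 (29.8%) had exactly the same width and exactly the same score as at least 1 other peak of the list, and the share over the whole list was 30.0%. A width of 693 bp with a score of 50.38 occurred 13 times in the list, 3 times on chromosome 12 and 1 time on chromosome 14, among 19 peaks of that width. A width of 685 bp with a score of 50.81 occurred 9 times among 10 peaks of that width, 3 of them on chromosome 12. A width of 667 bp with 51.80 occurred for all 8 peaks of that width, 2 of them on chromosome 12. Such repeats made up 27 of 79 peaks (34.2%) in the first and 25 of 57 (43.9%) in the second block of chromosome 12, and 10 of 86 (11.6%) in the chromosome 14 block. In these 3 examples the score falls as the width rises, from 51.80 at 667 bp to 50.38 at 693 bp. Other widths were less uniform: at 662 bp the pair with 50.90 held 2 of 15 peaks.

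Peaks below 110 Mb were few and scattered on both chromosomes. Chromosome 12 had 8, with a median score of 52.2, a highest score of 60.77 and no width above 752 bp. In order they lay at 12342176 to 12342828 (score 52.59), 13416334 to 13417085 (58.53), 33579846 to 33580512 (51.80), 55487119 to 55487811 (50.38), 70755079 to 70755737 (60.77), 72756802 to 72757486 (50.81), 78157910 to 78158350 (59.95) and 88197793 to 88198514 (50.75). None of them reached the median of the chromosome 14 block. The one at 78157910 is the narrowest peak of chromosome 12, with 441 bp.

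Chromosome 14 had 7 peaks below 110 Mb, with a median score of 62.0, and 2 of them were high. The peak at 10413375 to 10415423 scored 106.76 over 2049 bp. The peak at 33674916 to 33675169 scored 173.89, the 23rd of the list, over only 254 bp, the smallest width on either chromosome. A second peak lay close to it at 33712228 to 33712842 (72.84), with others at 31917888 to 31918465 (51.38) and 34054400 to 34055073 (51.41). The remaining 2 were at 29952156 to 29952795 (61.99) and 62668451 to 62669143 (50.38). So 5 of the 7 fell between 29 and 35 Mb, and none of the distal peaks was as narrow as the one of 254 bp.

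The rest of the list gives the scale for these values. The 572 peaks of other chromosomes that lay in no block had a median score of 54.995, a median width of 683 bp and 1.40% of scores over 100. The 15 peaks below 110 Mb had 52.6, 667 bp and 2 of 15. The 1560 peaks in blocks of other chromosomes had 62.7, 859 bp and 12.6%. The 201 peaks in the 3 blocks of distal chromosome 8 had a median score of 70.4, a median width of 1034 bp and 25.9% of scores over 100, which are near the values of the chromosome 14 block. The chromosome 14 block had the highest peak density and the highest covered share of the 10 blocks in the list, and the second block of chromosome 12 had the lowest of both. The median spacing of the chromosome 14 block (6.96 kb) was near that of the blocks on chromosome 9 (7.26 kb) and chromosome 19 (7.79 kb). These comparisons are descriptions of 1 list and were not tested. With no control coverage used, a regional gain in reads and denser binding cannot be told apart for any of these blocks.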

How the data were processed

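One list of peaks from chromatin capture and single-molecule sequencing was used. The authors deposited intervals with 1 score each. CisGenome made the calls, per the file header. The build is mm9 (submitters' processing notes). The deposited score has no stated scale and a lowest value of 50.00. The track name ends in "Bcl11a_XL_onES_pcut5 only"; "onES" and "pcut5" may name a control and a cutoff, and "only" a subset, but no source used here explains them. Aligner and depth are not stated either. Peak start and end are the authors' deposited positions, printed counting from 1. The list had 0 overlapping neighbours.

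Centres, distances, blocks, clusters (edges within 10 kb) and medians were computed with Python 3.11.15, numpy 2.4.6, pandas 2.3.3 and scipy 1.17.1. Block finding, merging and median intervals were tested on simulated lists with planted blocks of almost evenly spaced peaks. This checks the code and not the choice of the block rule. The members, boundary and block rule were chosen with earlier results of these data known. Named peaks are the 5 highest, the lowest, first, last, widest and narrowest of each block, all peaks in no block and those beside 110 Mb. No test was run, since positions chose the members. No mm9 annotation or sequence was used; the gene table (GRCm38.p6) gave gene order only, and 14 of the 14 genes looked up were found.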

Additional observations from a re-analysis of the deposited data

How the results depend on the processing

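Moving the boundary down to 100 Mb, or up by 3 Mb, changed none of the values recomputed, because both positions lie in the empty stretch of each chromosome. Of 50 values under the alternatives, 37 stayed within the 95% binomial interval of the value (for correlations within 0.1, for the number of blocks within 1.5 times), and 13 moved. The 37 include every value with a shifted boundary, which could not change, so they overstate how stable the values are. They also include the fall from 3 to 2 blocks. The cause of the 13 moves was not tested, beyond what each alternative does by construction. Among the 1185 highest-scoring peaks of the list, distal peaks of chromosome 12 had a median score of 72.0, a median width of 876 bp, a median spacing of 22.5 kb and a rho of 0.74, those of chromosome 14 had a median score of 83.5 and a spacing of 8.61 kb, and 2 blocks remained, since the second block of chromosome 12 fell below 20 peaks. Means in place of medians gave scores of 64.3 and 82.3 and widths of 831 and 1104 bp on chromosomes 12 and 14. With peaks within 10 kb merged, spacing was 39.5 kb on chromosome 12 and 29.5 kb on chromosome 14, and the distal share of chromosome 14 was 78.1%. The number of blocks was 3 under its other alternatives, but with a gap of 100 kb they held 88 of the 145 peaks of chromosome 12 in place of 136. No paired analysis was possible because only 1 list, of 1 sample, entered. What read depth limits is unknown.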
